A study of Mus musculus with 15 samples.

Results

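The genes described here are 3 markers of the sensory neurons that carry C-fibre touch, Th, Tafa4 and Slc17a8, and the other vesicular glutamate transporters, Slc17a6 and Slc17a7. They are all 5 of the named set, out of 19938 genes tested, and were found by gene symbol. Each had 1 probe set on the array. C-fibre low-threshold mechanoreceptors are unmyelinated neurons of hairy skin that respond to slow, gentle stroking. They are known in the mouse for tyrosine hydroxylase (Th), for the secreted protein TAFA4 and for the vesicular glutamate transporter VGLUT3 (Slc17a8). Nearly all sensory neurons signal with glutamate, which VGLUT proteins load into synaptic vesicles. VGLUT2 (Slc17a6) is the usual form of small and medium neurons, and VGLUT1 (Slc17a7) is typical of large myelinated afferents.

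RNA came from sensory neurons of lumbar dorsal root ganglia, levels 2 to 5, of C57BL/6 mice whose CGRP promoter drove green fluorescent protein, and each of the 5 groups had 3 arrays. The skin groups were CGRP-positive neurons after CFA, complete Freund's adjuvant, in the paw to inflame it (CFA paw) or after saline in the paw (saline paw). The muscle groups were CGRP-negative neurons after CFA (CFA muscle), acid (acid muscle) or saline (saline muscle) in the muscle. All neurons were sorted above a diameter of 26.9 µm and by a lectin tracer that had been given to the gastrocnemius muscle or the saphenous nerve 5 days before the mice were killed. The study asked about mechanosensitive proteins of myelinated afferents after inflammation. C-fibre touch neurons are small and unmyelinated, and the sort was for large cells. Target tissue, CGRP status and injection site differ together between paw and muscle and cannot be told apart. The labels do not say whether RNA of several animals was pooled. The 3 arrays of a group are described as biological replicates, and p-values measure the spread between them.

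Of 11 measured sensory neuron markers all 11 lay above the dim limit, a mean log2 level of 2.45, the 95th percentile over 1179 genes for odour and pheromone receptors. So did all 9 measured markers of satellite glia and Schwann cells. Saline paw replicate 1 stood apart: the SD of its log2 levels over all genes was 1.42, within the range of the 9 muscle arrays (1.28 to 1.55), against 1.66 to 1.80 on the other 5 paw arrays. Differences that use it are given without it as well where the call, the sign or the size changed. The array was singled out for this after the data were seen. Values are the authors' normalized expression, taken as log2, the scale that RMA gives, since no source used here states the log base, and levels are compared only within a gene.

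The regions just before the start sites of Th and Tafa4 are shown because Tafa4 carried the only difference that passed over all genes and Th the lowest unadjusted p among the 5 genes in acid against saline muscle. The sequences are RefSeq's, build GRCm38.p6, 250 bases before to 50 after the start, both on the minus strand and written 5′ to 3′. Capitals mark motif matches.
Th, chr7:142899946-142900245: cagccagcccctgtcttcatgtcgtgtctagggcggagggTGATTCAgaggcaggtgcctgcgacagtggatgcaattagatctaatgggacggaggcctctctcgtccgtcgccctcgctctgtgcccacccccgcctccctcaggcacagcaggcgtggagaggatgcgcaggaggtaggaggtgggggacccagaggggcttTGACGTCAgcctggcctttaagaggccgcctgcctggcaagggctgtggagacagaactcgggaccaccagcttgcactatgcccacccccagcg
Tafa4, chr6:97060362-97060661: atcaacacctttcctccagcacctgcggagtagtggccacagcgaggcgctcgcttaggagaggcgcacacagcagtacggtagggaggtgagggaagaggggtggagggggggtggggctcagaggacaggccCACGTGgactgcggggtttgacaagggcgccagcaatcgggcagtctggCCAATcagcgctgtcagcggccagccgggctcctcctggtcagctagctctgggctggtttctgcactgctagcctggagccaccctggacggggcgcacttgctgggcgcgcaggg

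The motifs searched, on both strands, were the cyclic AMP response element (CRE) TGACGTCA, the AP-1 motif TGANTCA, the E-box CACGTG, the RUNX motif TGTGGT, the CCAAT box CCAAT and the TATA box TATAAA. No match overlapped another. The Th region held 1 CRE match, which begins 45 bases before the start site, and 1 AP-1 match. Of all 32851 promoter regions of this length, 1.79% held the CRE letters and 7.81% the AP-1 letters. The Tafa4 region held 1 E-box and 1 CCAAT match, as 7.15% and 37.4% of all regions did. The RUNX and TATA letters, in 16.8% and 13.6% of all regions, were in neither window. The windows of Slc17a6, Slc17a7 and Slc17a8, including those at 1 further start site of Slc17a6 and of Slc17a8, held 0 matches to these letters.

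Tafa4 was lower in CGRP-positive skin neurons than in CGRP-negative muscle neurons, by 1.70-fold over the saline and CFA arrays together if the values are log2. This difference did not pass when the SD of each array entered the model as a covariate. Tafa4 encodes a small secreted protein that C-fibre touch neurons of the mouse release and that dampens pain after injury. Th and Slc17a8 had differences of the same sign that did not pass as deposited. As deposited, Slc17a6 and Slc17a7 had differences of the opposite sign that did not pass, and both changed sign under some other processing. Without saline paw replicate 1, Slc17a6 (0.97, limma adjusted p = 0.0305) and Slc17a8 (−0.57, limma adjusted p = 0.0011) passed. For CFA in paw or muscle, and acid in muscle, each against saline, 0 of the 5 genes and 0% of all genes passed the threshold.

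**Figure D1:**
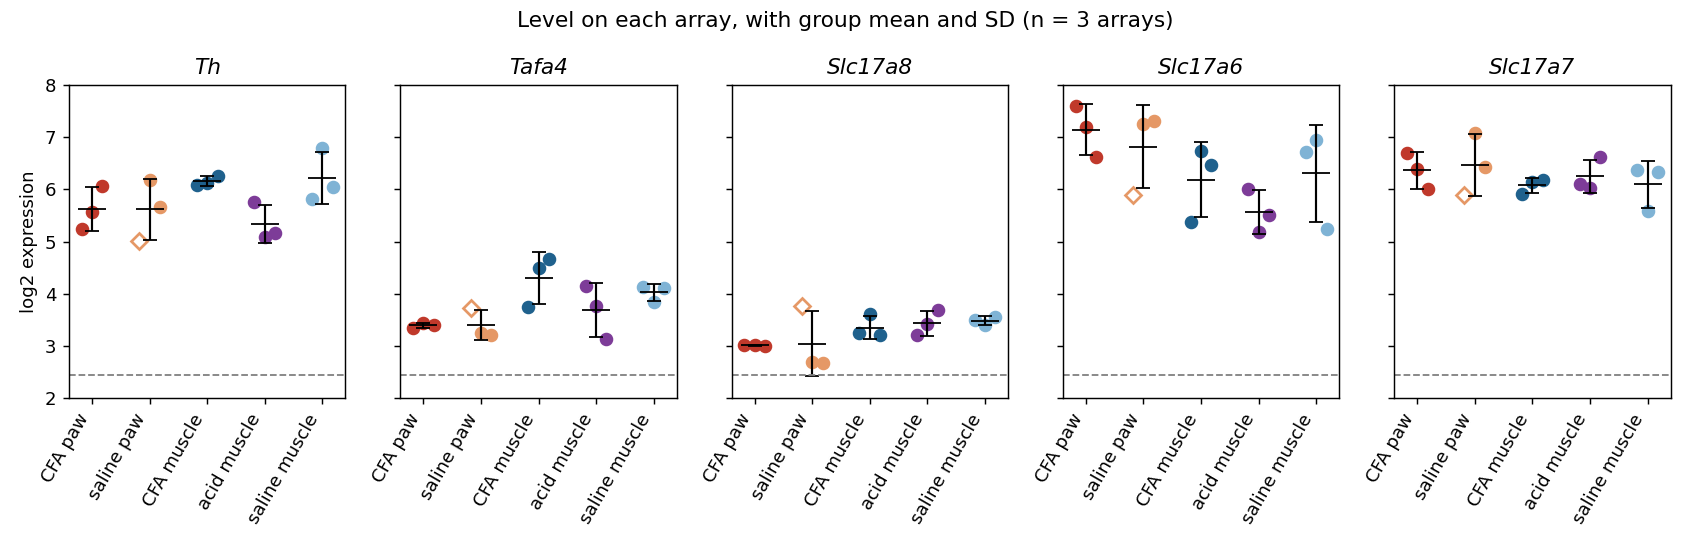
Log2 expression of the 5 genes on each array (points) in the 5 groups, with the group mean and SD (black, n = 3 arrays each); the dashed line is the dim limit of 2.45 and the open diamond is saline paw replicate 1. All Tafa4 points of the paw groups lie at or below 3.74, and the open diamond is the highest paw point for Tafa4 and Slc17a8 and the lowest for Th, Slc17a6 and Slc17a7.

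Tafa4 had a log2 level of 3.35, 3.45 and 3.40 on the CFA paw arrays and of 3.74, 3.26 and 3.21 on the saline paw arrays. It had 3.74, 4.50 and 4.68 on the CFA muscle arrays and 4.12, 3.84 and 4.12 on the saline muscle arrays. The 6 paw arrays lay below all 6 of these muscle arrays, with the highest paw value (3.738, saline paw replicate 1) just under the lowest muscle value (3.744, CFA muscle replicate 1). Such a separation downward was seen for 1.54% of all genes. The acid muscle arrays, at 4.16, 3.76 and 3.14, overlapped both sides. In a limma fit over all genes the paw minus muscle difference over saline and CFA was −0.77 (SE 0.184, 95% interval −1.16 to −0.37, adjusted p = 0.0125). Among the 5 genes 1 was lower and 0 were higher past the threshold in this comparison, in which 14.7% of all genes passed, 3.12% of all being lower. Before adjustment p was under 0.05 for 3 of the 5 genes and for 30.3% of all genes. An exact permutation of the paw and muscle labels within each injected agent gave p = 0.005, the smallest its 400 assignments allow, and it was run for each of the 5 genes. With all 6 paw arrays below all 6 muscle arrays this p is fixed, so it restates that separation. In these sorted pools of neurons, fewer cells of a type and less RNA per cell cannot be told apart.

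Within the single agents the Tafa4 difference was −0.91 after CFA (SE 0.261, adjusted p = 0.0525) and −0.62 after saline (SE 0.261, adjusted p = 0.235) in limma. After CFA, 0 of the 5 genes passed, where 6.41% of all genes did, and 1 of the 5 had an unadjusted p under 0.05, where 20.8% of all genes did. After saline, 0 of the 5 passed, where 2.04% of all genes did, and 1 had an unadjusted p under 0.05, where 16.9% did. Without saline paw replicate 1, 1 of the 5, Slc17a8, passed after saline, and 3824 of all genes did, against 407 with it. The saline difference of Tafa4 was then −0.79 (adjusted p = 0.0564). When the SD of each array entered the model as a covariate, the pooled difference of Tafa4 was −0.53 and did not pass (adjusted p = 0.298). With no covariate and without saline paw replicate 1 it passed (−0.85, limma adjusted p = 0.003). The level of Tafa4 had a correlation of −0.95 with the array SD over the 6 paw arrays and of −0.061 over the 9 muscle arrays. Its mean over all arrays was 3.76, beside the dim limit of 2.45. The part of the array SD in the Tafa4 difference was not tested further.

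Slc17a8 encodes VGLUT3, the transporter that marks C-fibre touch neurons among sensory neurons. Its log2 level was 3.03, 3.02 and 3.01 on the CFA paw arrays and 3.77, 2.69 and 2.68 on the saline paw arrays. On the muscle arrays it was 3.25, 3.61 and 3.21 after CFA, 3.21, 3.42 and 3.68 after acid and 3.50, 3.40 and 3.57 after saline. Apart from saline paw replicate 1, which was the highest of all 15 arrays, the paw arrays lay below all 9 muscle arrays. That order without the array was seen for 5.02% of all genes. The mean over all arrays was 3.27, not far above the dim limit, and the 95th percentile of the receptor genes ran from 2.29 to 2.42 on the paw arrays other than saline paw replicate 1, against 2.42 to 2.79 on the muscle arrays.

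After saline alone, the paw minus muscle difference of Slc17a8 was −0.44 (SE 0.238, limma adjusted p = 0.372) on all arrays and −0.80 (SE 0.159, adjusted p = 0.00365) without saline paw replicate 1. After CFA alone it was −0.33 (SE 0.238, adjusted p = 0.452). That SE is from the pooled spread, and the SD was 0.0092 on CFA paw, 0.22 on CFA muscle and 0.63 on saline paw arrays. Over saline and CFA together the difference was −0.39 (SE 0.169, adjusted p = 0.138). Without saline paw replicate 1 it was −0.57 (SE 0.107, adjusted p = 0.0011), and the exact permutation p, 0.095 on all arrays, was then 0.005, the smallest that the 200 assignments allow. That array was singled out after the data were seen. Without it the paw arrays lie wholly below the muscle arrays, which by itself fixes the permutation p at its smallest value. Adjusted for array SD, the difference over saline and CFA together was −0.0037 on all arrays (adjusted p = 0.996). The part of the array SD in these differences was not tested further.

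Th encodes tyrosine hydroxylase, the enzyme that makes the dopamine precursor L-DOPA. Its log2 level was 5.23, 5.56 and 6.07 on the CFA paw arrays and 5.01, 6.19 and 5.66 on the saline paw arrays. On the muscle arrays it was 6.08, 6.12 and 6.26 after CFA, 5.75, 5.09 and 5.16 after acid and 5.82, 6.79 and 6.05 after saline. The 3 acid muscle arrays lay below all CFA muscle and all saline muscle arrays, and the 3 CFA paw arrays lay just below the 3 CFA muscle arrays. Saline paw and saline muscle overlapped.

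The paw minus muscle difference of Th over saline and CFA was −0.56 (SE 0.218, limma adjusted p = 0.097), with an exact permutation p of 0.04. It was −0.53 after CFA (adjusted p = 0.351) and −0.60 after saline (adjusted p = 0.348), or −0.29 after saline without saline paw replicate 1 (adjusted p = 0.487). It passed after quantile normalization (−1.003, adjusted p = 0.00445) and after cyclic loess (−0.97, adjusted p = 0.00411), and its exact permutation p was 0.1 without saline paw replicate 1 (−0.41). After CFA, Th, Tafa4 and Slc17a8 each had paw arrays wholly below the muscle arrays, 3 of the 5 genes, where 17.1% of all genes did. After saline only Tafa4 did, where 7.06% of all genes did.

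In muscle, Th averaged 5.34 ± 0.36 on the acid arrays and 6.22 ± 0.50 on the saline arrays (SD, n = 3 each), a difference of −0.88 (SE 0.309, 95% interval −1.54 to −0.22) that did not pass (limma adjusted p = 1, unadjusted p = 0.0123). It ranked 95 of the 19938 genes by p. In limma 0 of the 5 genes and 0% of all genes passed in this comparison, and an unadjusted p under 0.05 was found for 568 genes, or 2.85%. Arrays wholly below those of saline muscle were seen for 1 of the 5 genes, Th, and for 2.94% of all genes. The difference lay between −1.09 and −0.60 in all 16 alternatives. Several of these, such as a changed prior or leaving out dim genes, cannot change its value. The count of 16 therefore does not measure its stability.

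Th averaged 6.15 ± 0.096 on the CFA muscle arrays and 5.34 ± 0.36 on the acid muscle arrays (SD, n = 3 each). This difference was 0.82 (SE 0.309, limma adjusted p = 1, unadjusted p = 0.0186), and Th was the only one of the 5 genes whose arrays did not overlap, with CFA muscle above, where 2.92% of all genes did so. In limma 0 of the 5 genes and 0% of all genes passed, and an unadjusted p under 0.05 was found for 626 genes, or 3.14%. Both comparisons use the same 3 acid arrays. Tafa4 was higher after CFA than after acid by 0.62 (unadjusted p = 0.0322), with overlapping arrays.

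Sympathetic neurons also make tyrosine hydroxylase. Of their 8 measured markers, 5 lay above the dim limit. The transcription factor genes Hand1 and Hand2 had group means of 3.93 to 4.52 and 3.38 to 3.88. The 3 under the limit were Dbh, which makes noradrenaline (group means 2.00 to 2.16), the noradrenaline transporter gene Slc6a2 (2.22 to 2.54) and the vesicular monoamine transporter gene Slc18a2 (2.26 to 2.39). The summed linear level of the 8 measured sympathetic markers was 50.7 to 60.8 on the CFA paw arrays and 48.1 to 74.1 on the saline paw arrays. It was 69.8 to 74.9 on the CFA muscle, 64.8 to 72.4 on the acid muscle and 64.9 to 75.8 on the saline muscle arrays. Of these 8, 1 was lower in paw than in muscle, Hand1 (−0.48, limma adjusted p = 0.0124), and 0 were higher, with a median of −0.24. In acid against saline muscle their median was −0.0037 and 0 passed. Their part in the differences of Th was not tested. Of 13 measured genes for catecholamine and tetrahydrobiopterin handling, 0 passed in paw against muscle, with a median of −0.12 beside −0.040 for all genes.

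Slc17a6 encodes VGLUT2. Its log2 level was 7.61, 7.20 and 6.62 on the CFA paw arrays and 5.90, 7.25 and 7.31 on the saline paw arrays. On the muscle arrays it was 5.37, 6.73 and 6.46 after CFA, 6.02, 5.18 and 5.51 after acid and 6.73, 6.95 and 5.25 after saline. The arrays within a group were far apart, and paw and muscle overlapped. The pooled SD within groups was 0.70, higher than that of 99.6% of all genes, whose median was 0.23.

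The paw minus muscle difference of Slc17a6 over saline and CFA was 0.73 (SE 0.344, limma adjusted p = 0.166), with an exact permutation p of 0.115. Without saline paw replicate 1, the lowest paw array, it was 0.97 and passed (adjusted p = 0.0305, exact permutation p = 0.035). Adjusted for array SD it was −0.36 (adjusted p = 0.647). It was 0.20 after quantile normalization and 0.22 after cyclic loess, and did not pass in either (adjusted p = 0.718 and 0.637). In the acid muscle arrays Slc17a6 averaged 5.57 ± 0.42, the lowest of the 5 groups, against 6.31 ± 0.93 in saline muscle (SD, n = 3 each). The difference was −0.74 with an SE of 0.486 (limma adjusted p = 1).

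Slc17a7 encodes VGLUT1. Its log2 level was 6.70, 6.39 and 6.01 on the CFA paw arrays and 5.90, 7.08 and 6.42 on the saline paw arrays. On the muscle arrays it was 5.92, 6.14 and 6.18 after CFA, 6.11, 6.03 and 6.61 after acid and 6.37, 5.58 and 6.34 after saline. The groups overlapped throughout. The paw minus muscle difference was 0.33 (SE 0.204, 95% interval −0.11 to 0.76, limma adjusted p = 0.294), with an exact permutation p of 0.19. It was 0.47 without saline paw replicate 1 (adjusted p = 0.0642, exact permutation p = 0.07). It was −0.16 after quantile normalization and −0.16 after cyclic loess, so no direction can be given.

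**Figure D2:**
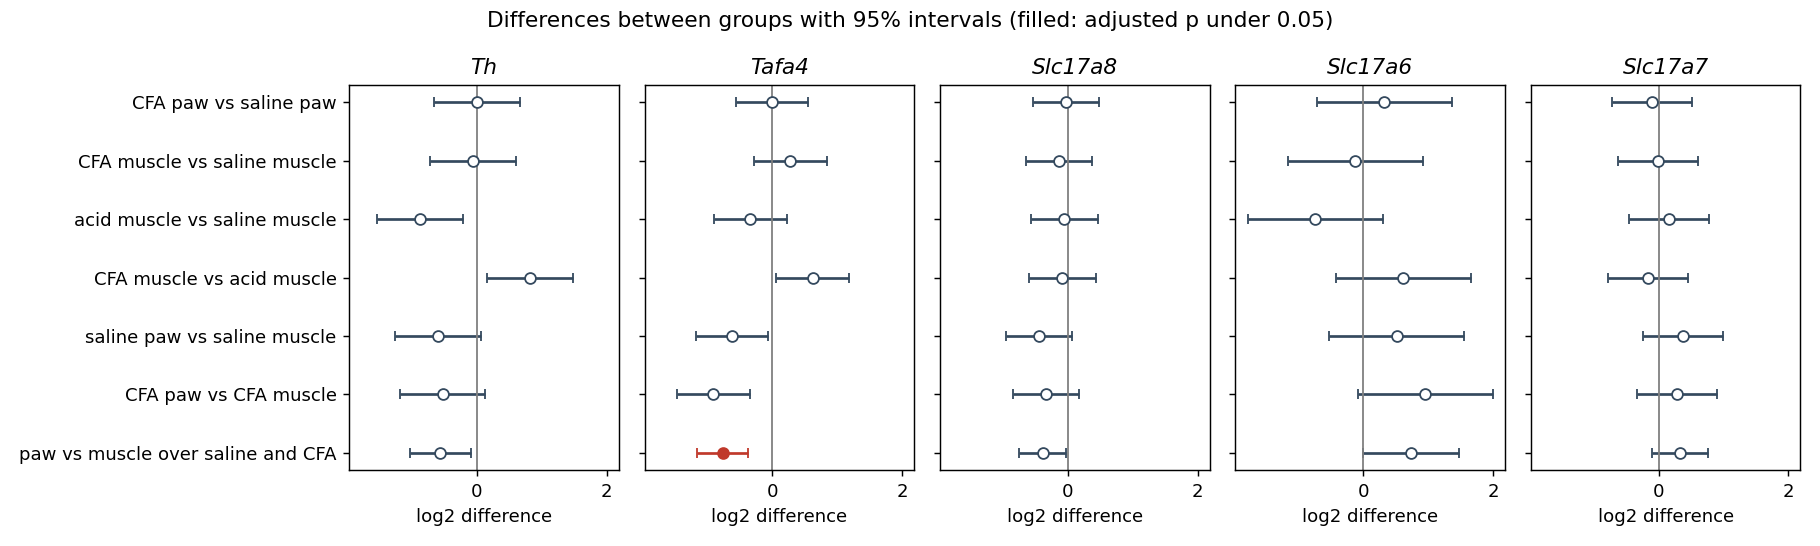
Log2 differences of the 5 genes with their 95% intervals in each comparison, from the limma fit over all genes; positive values are higher in the group named first and filled points have an adjusted p under 0.05. For paw against muscle over saline and CFA, the intervals of Th, Tafa4 and Slc17a8 lie below 0, and after adjustment over all genes Tafa4 passed (−0.77).

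CFA in the paw left all 5 genes within 0.32 of saline paw. The differences were 0.0041 for Th, −0.0068 for Tafa4, −0.029 for Slc17a8, 0.32 for Slc17a6 and −0.10 for Slc17a7. The 95% interval for Tafa4 was −0.56 to 0.55 and that for Slc17a6 −0.72 to 1.36, so changes of that size cannot be told from none. In limma 0 of the 5 genes and 0% of all genes passed, and an unadjusted p under 0.05 was found for 241 genes, or 1.21%. With array weights 125 genes passed, where the weight was 7.18 for saline paw replicate 3 and 0.148 for saline paw replicate 1. Without saline paw replicate 1 the differences were −0.30 for Th, 0.16 for Tafa4, 0.33 for Slc17a8 and −0.14 for Slc17a6, each of opposite sign, and −0.39 for Slc17a7.

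CFA in the muscle gave differences from saline muscle of −0.064 for Th, 0.28 for Tafa4, −0.13 for Slc17a8, −0.12 for Slc17a6 and −0.014 for Slc17a7. In limma 0 of the 5 genes and 0% of all genes passed, and an unadjusted p under 0.05 was found for 518 genes, or 2.6%. The CFA effect in muscle minus that in paw was −0.44 for Slc17a6 (95% interval −1.92 to 1.03) and 0.29 for Tafa4 (−0.50 to 1.07). Leaving out saline paw replicate 1, it was 0.019 for Slc17a6, 0.12 for Tafa4, 0.24 for Th, 0.37 for Slc17a7 and −0.47 for Slc17a8. In that test 0 of the 5 genes and 0% of all genes passed, with 325 genes, 1.63%, at an unadjusted p under 0.05.

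By group mean, Tafa4 was highest in CFA muscle (4.31), then saline muscle (4.03), acid muscle (3.69), saline paw (3.40) and CFA paw (3.40). Slc17a8 ran from saline muscle (3.49) through acid muscle (3.44), CFA muscle (3.35) and saline paw (3.05) to CFA paw (3.02). Th ran from saline muscle (6.22) through CFA muscle (6.15), CFA paw (5.62) and saline paw (5.62) to acid muscle (5.34). Slc17a6 ran from CFA paw (7.14) through saline paw (6.82), saline muscle (6.31) and CFA muscle (6.19) to acid muscle (5.57). Slc17a7 ran from saline paw (6.47) through CFA paw (6.36), acid muscle (6.25) and saline muscle (6.10) to CFA muscle (6.08). No neighbours in these orders differed past the threshold.

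Of 9 other measured markers of C-fibre touch neurons, 1 was lower in paw than in muscle over saline and CFA and 0 were higher. It was Bhlha9, a transcription factor gene, at −0.51 (SE 0.134, limma adjusted p = 0.0193). The GDNF-family receptor gene Gfra2 (−0.67, adjusted p = 0.0505) and the purinergic receptor gene P2ry1 (−0.59, adjusted p = 0.0503) missed the threshold, and the mechanically gated channel gene Piezo2 was at 0.17 (adjusted p = 0.603). Of the 9, 2 lay above 0, Piezo2 and the receptor gene Ret. Ret averaged 8.75 on CFA paw and 8.35 on saline paw arrays, against 8.24 on CFA muscle and 8.24 on saline muscle arrays. The median over the 9 was −0.24, beside −0.040 for all genes. In acid against saline muscle 0 of the 9 passed, with a median of −0.26 beside 0.016 for all genes.

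The other TAFA genes, which encode related secreted proteins, included 1 higher gene in 4. Tafa1 averaged 6.85 on CFA paw and 6.35 on saline paw arrays, against 4.11 on CFA muscle and 4.40 on saline muscle arrays. That is a difference of 2.35 (SE 0.235, limma adjusted p = 3.03e-05), of opposite sign to that of Tafa4. Tafa2, Tafa3 and Tafa5 were at −0.066, 0.092 and 0.061 and did not pass.

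**Figure D3:**
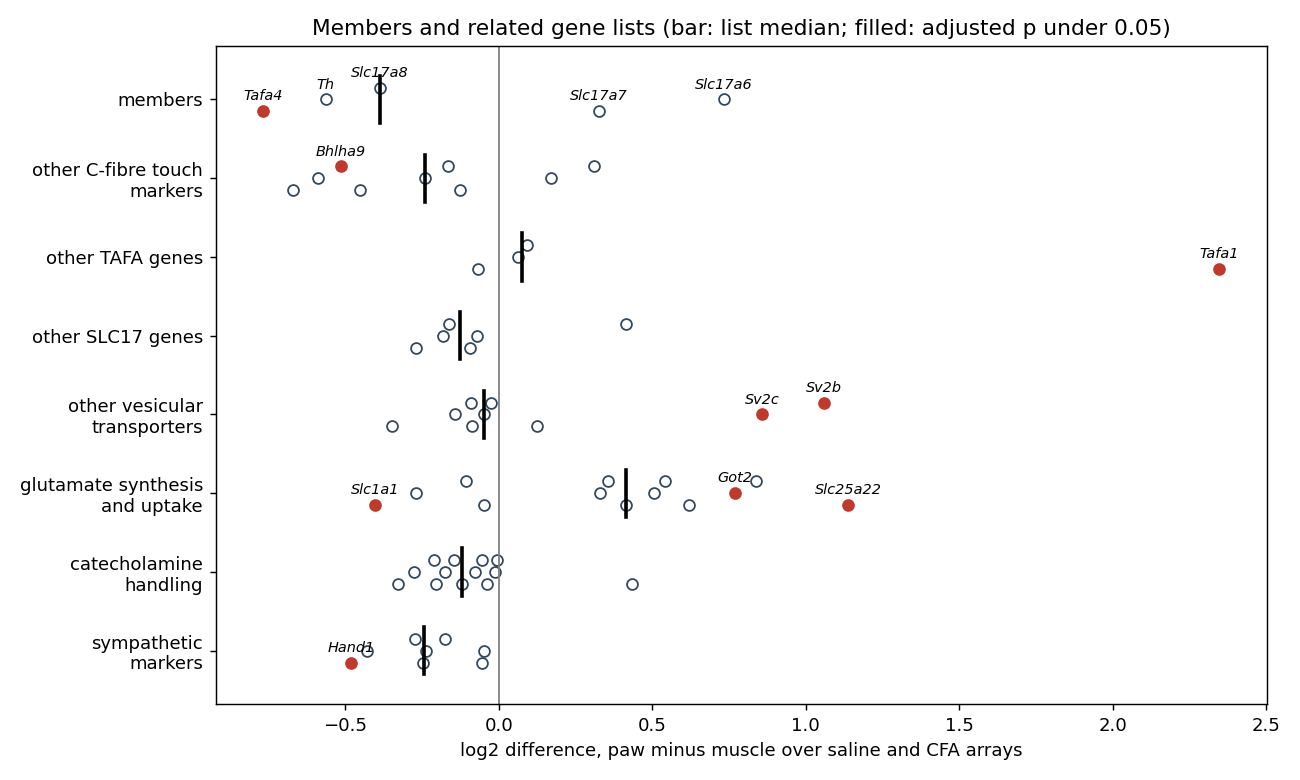
Log2 differences of paw minus muscle over saline and CFA for the 5 genes and for related lists, each point a gene (filled where adjusted p was under 0.05) and each bar the list's median. The medians are −0.24 for the other C-fibre touch markers and 0.42 for glutamate synthesis and uptake, beside −0.040 for all genes.

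Of 6 other SLC17 genes, which carry phosphate, sialic acid or nucleotides, 0 passed in paw against muscle, and 4 lay under the dim limit. Of 9 genes for other vesicular transporters and for synaptic vesicle glycoproteins, 2 were higher in paw. They were the glycoprotein genes Sv2b (1.06, limma adjusted p = 0.0176) and Sv2c (0.86, adjusted p = 0.0169), and no transporter gene of this list passed. Of 13 measured genes of glutamate synthesis and uptake, 2 were higher and 1 was lower. The mitochondrial glutamate carrier gene Slc25a22 was at 1.14 (adjusted p = 0.00133), the transaminase gene Got2 at 0.77 (adjusted p = 0.0357) and the glutamate transporter gene Slc1a1 at −0.40 (adjusted p = 0.0412).

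Markers of sensory neurons, their classes and non-neuronal cells were also compared between paw and muscle over saline and CFA. All 6 measured peptidergic markers were higher in paw than in muscle, with a median of 2.38, and the CGRP gene Calca itself was not analysed here. Paw neurons were sorted as CGRP-positive and muscle neurons as CGRP-negative, so the sort itself selected for peptidergic neurons in paw. Of 12 large myelinated markers, 5 were higher and 0 lower. Of 6 non-peptidergic markers 2 were lower, Mrgprd (−2.00, limma adjusted p = 8.41e-06) and Lpar3 (−0.98, adjusted p = 0.00196). Of 11 general sensory neuron markers, 9 were higher and 0 lower, with a median of 0.84. Of 11 endothelial and fibroblast markers 0 passed, and their median was −0.41, with 1 of the 11 above 0. Of 10 macrophage markers 0 passed, with a median of −0.17 and 0 above 0, and 4 lay above the dim limit. Of 9 markers of satellite glia and Schwann cells 1 was higher, S100b (0.86, adjusted p = 0.0419), and 0 lower, with a median of 0.25. The part of these markers in the differences of the 5 genes was not tested.

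**Figure D4:**
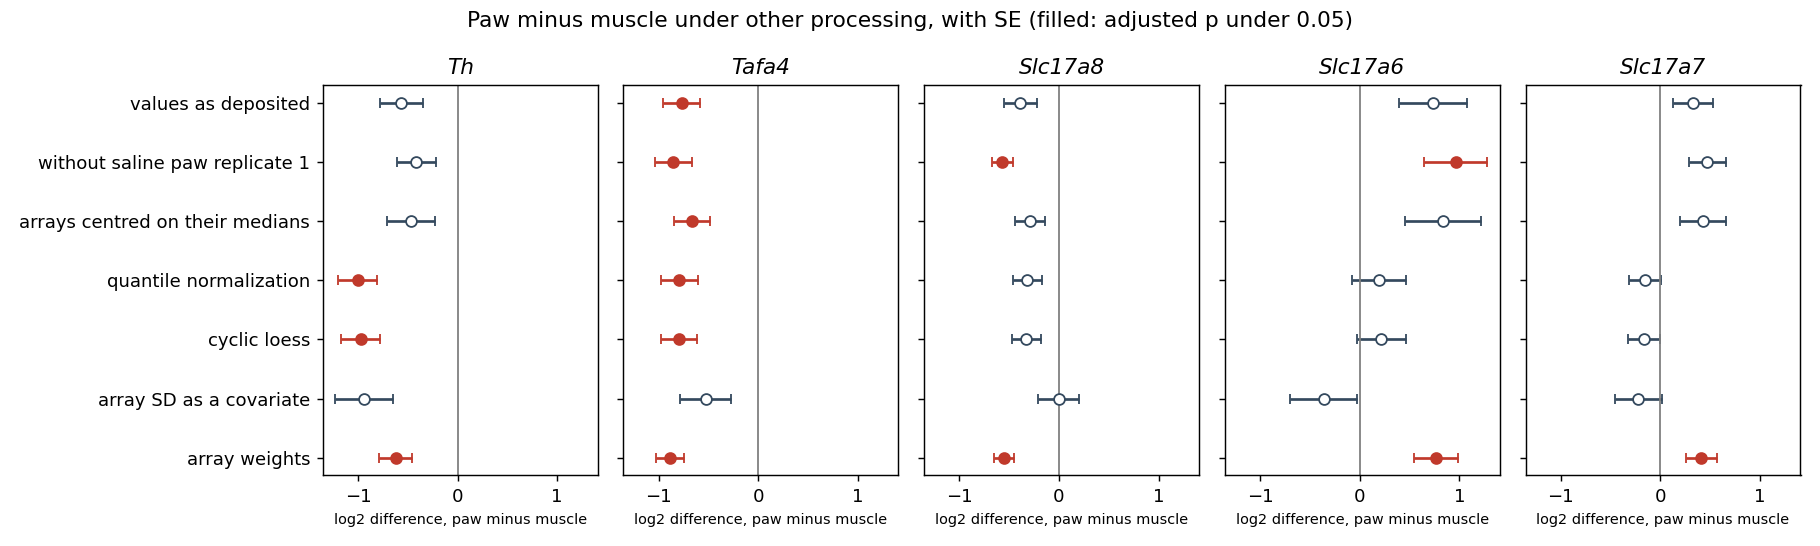
Log2 difference of paw minus muscle over saline and CFA for each of the 5 genes as deposited and under 6 alternatives, with bars for the SE and filled points for an adjusted p under 0.05. Tafa4 lies between −0.89 and −0.53 throughout, while Slc17a6 runs from −0.36 to 0.97 and Slc17a7 from −0.22 to 0.47.

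The genes whose levels over all 15 arrays were most like each of the 5, by Pearson correlation among the genes tested, share the libraries and the array SD with it. For Th they were Tmem63a (r = 0.83), Fryl (0.82), Gfra2 (0.82) and Tor1b (0.80). In the same order, the correlations with Th were 0.81, 0.82, 0.81 and 0.85 over the 9 muscle arrays. Over the 6 paw arrays they were 0.88, 0.83, 0.93 and 0.72. The genes most like Tafa4 were Hmgb2 (0.90), Igfbp2 (0.89), Thap3 (0.87) and Ezh2 (0.86), with 0.81 to 0.91 over the muscle arrays and 0.41 to 0.90 over the paw arrays. For Slc17a8 they were Eml3 (0.95), Atp6v0a2 (0.93), Twist1 (0.91) and Lhx6 (0.91), with 0.66 to 0.83 over the muscle arrays and 0.95 to 0.99 over the paw arrays. For Slc17a6 they were Usp9x (0.97), Nsdhl (0.96), Dgkh (0.96) and Sytl2 (0.95), and for Slc17a7 Arl3 (0.90), Chgb (0.90), Pon2 (0.89) and St3gal5 (0.87). Over the 14 arrays without saline paw replicate 1, a set chosen after seeing the data, the correlations with these genes were 0.77 to 0.80 for Th, 0.86 to 0.92 for Tafa4, 0.89 to 0.94 for Slc17a8, 0.95 to 0.97 for Slc17a6 and 0.87 to 0.90 for Slc17a7. Th, Tafa4 and Slc17a8 did not follow each other throughout. Over all 15 arrays r was 0.39 for Th with Tafa4, −0.21 for Th with Slc17a8 and 0.44 for Tafa4 with Slc17a8. In the same order, r was 0.51, −0.31 and −0.37 over the muscle arrays and −0.64, −0.73 and 0.98 over the paw arrays.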

How the data were processed

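RNA of sorted neurons (50 ng, amplified, per the labels' protocols) was measured on whole-transcript Affymetrix arrays, 15 arrays in 5 groups of 3, grouped by sample title. The authors deposited 1 value for each probe set and array, made with RMA and Partek per the submitters' processing notes, with versions not given in the sources used here. The deposited values are taken as log2, which RMA gives and their range allows; no source used here states the base, and fold values rest on it. Normalization over all arrays sets levels relative to each array, and array number limits the precision.

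Of 35556 probe sets, 21789 had 1 gene symbol, 1621 several and 12146 none in the table used here. For genes with more than 1 probe set the one with the highest mean was taken, which gave 19938 genes. A model of 5 group means over all arrays was fitted with limma 3.58.1 in R 4.3.3, after a check on simulated data, and p-values were adjusted by Benjamini-Hochberg over all genes (threshold 0.05). Paw against muscle is the mean of the saline and CFA differences. The exact permutation tests were two-sided. The 5 genes and all lists were chosen with earlier results of these data known. Named were the 5 genes, up to 4 called genes per list, a few related genes and the 4 genes most like each. P2ry1, Piezo2, Ret, Hand2 and Slc18a2 were named after their values were seen. Probe sets of receptor genes set the dim limit. Alternatives covered scaling, weights, the prior, dim genes, the arrays fitted and leaving out each array.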

Additional observations from a re-analysis of the deposited data

How the results depend on the processing

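Over 40 gene and comparison pairs, 700 alternative values were computed for the 5 genes. Of these, 622 kept direction and side of the threshold, 59 changed sign, 18 came to pass and 1 no longer passed. None of the 59 belonged to a difference that passed. Some alternatives, such as a changed prior, cannot change a difference, and only the pooled Tafa4 difference passed as deposited. The tally is thus partly fixed in advance and does not measure robustness. The cause was not tested in any case.

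With medians centred, Tafa4 in CFA against saline paw was 0.023, and saline paw against saline muscle had 213 called genes. After quantile normalization, CFA against saline paw was −0.030 for Th and 0.00073 for Tafa4. Slc17a7 was 0.00061 in CFA against saline muscle, −0.062 in saline paw against saline muscle, −0.25 in CFA paw against CFA muscle and −0.16 in paw against muscle. Called genes were 763 in CFA paw against CFA muscle and 1753 in paw against muscle, with 2 of the 5 genes called there. After cyclic loess, CFA against saline paw was −0.064 for Th, 0.034 for Tafa4 and 0.012 for Slc17a8. Slc17a7 was −0.079, −0.25 and −0.16 in saline, CFA and pooled paw against muscle, where 1 gene was called after CFA and 2 when pooled.

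With the array SD as a covariate, CFA against saline paw was −0.059 for Th, 0.034 for Tafa4 and 0.036 for Slc17a8. Saline paw against saline muscle was −0.49 for Slc17a6 and −0.13 for Slc17a7. CFA paw against CFA muscle was −0.24 for Slc17a6, −0.31 for Slc17a7 and 0.082 for Slc17a8, with 444 called genes. Paw against muscle was −0.36 for Slc17a6 and −0.22 for Slc17a7, with 866 called genes and 0 of the 5. Without dim genes, and with a trend and robust prior, 1 of the 5 was called in CFA paw against CFA muscle. With only the arrays compared, saline paw against saline muscle had 0 called genes and CFA paw against CFA muscle 3209, 1 of them among the 5.

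With array weights, CFA against saline paw had 125 called genes and was −0.14 for Th, 0.17 for Tafa4, −0.071 for Slc17a6 and 0.32 for Slc17a8. Slc17a7 in CFA against saline muscle was 0.16 and Slc17a8 in CFA against acid muscle 0.013. Called genes were 7379, 4054 and 9139 in saline, CFA and pooled paw against muscle, with 3, 1 and 5 of the 5 genes.

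Leaving out each array in turn gave these ranges. Called genes were 51 to 3824 in saline paw against saline muscle, 527 to 832 in CFA paw against CFA muscle, 1782 to 6499 in paw against muscle, 0 to 8 in CFA against saline muscle, 0 to 6 in CFA against acid muscle and 0 to 1 for the difference of CFA effects. The highest counts in saline and pooled paw against muscle were those without saline paw replicate 1. Of the 5 genes 0 to 1, 0 to 1 and 1 to 3 were called in saline, CFA and pooled paw against muscle. CFA against saline paw ranged from −0.30 to 0.29 for Th, −0.10 to 0.16 for Tafa4, −0.14 to 0.58 for Slc17a6, −0.39 to 0.20 for Slc17a7 and −0.21 to 0.33 for Slc17a8. CFA against saline muscle ranged from −0.26 to 0.22 for Th, −0.65 to 0.29 for Slc17a6 and −0.27 to 0.12 for Slc17a7. Acid against saline muscle ranged from −0.10 to 0.29 for Slc17a7 and −0.17 to 0.064 for Slc17a8. CFA against acid muscle ranged from −0.28 to 0.013 for Slc17a7 and −0.21 to 0.039 for Slc17a8. Slc17a6 in saline paw against saline muscle ranged from −0.018 to 0.97. The difference of CFA effects ranged from −0.35 to 0.24 for Th, −0.97 to 0.019 for Slc17a6, −0.22 to 0.37 for Slc17a7 and −0.47 to 0.078 for Slc17a8. Without saline paw replicate 1 the exact permutation values in paw against muscle were −0.41 for Th, 0.97 for Slc17a6 and −0.57 for Slc17a8.

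Same-numbered samples did not all correlate over 0.1 in any comparison, so the main model did not pair samples by replicate number. With 3 arrays per group, these correlations cannot show whether same-numbered samples shared a preparation. With the replicate number as a block, Tafa4 in paw against muscle was −0.77 (limma adjusted p = 0.0244).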
